A study of Mus musculus with 10 samples.

Results

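The 7 genes described here encode proteins that bind, sense or move zinc: the metallothioneins Mt1 and Mt2, the zinc-sensing transcription factor Mtf1, the importers Slc39a14 and Slc39a8, and the exporters Slc30a1 and Slc30a10. They were taken by name from the 43629 genes of the count table, and all 7 passed the filter on low counts together with 14136 others, which gives 14143 genes tested. The data are RNA-seq read counts from the livers of 10 male mice of an inducible, genetically engineered lung cancer model that carried Lkb1 flox/flox alleles on an FVB backcross. Lung tumours had been induced in all of these mice, between 12 and 20 weeks of age, with an intranasal adenovirus that drives Cre from a CMV promoter, so that no group is free of tumour and the promoter is not restricted to 1 cell type. The study classed mice that lost more than 15% of body weight as having cancer anorexia-cachexia syndrome (CACS) and the others as NCACS. Weight change in the 5 NCACS mice (numbered 11 to 15) was -14 to -3% (mean -8 ± 4.64%, SD), and in the 5 CACS mice (16 to 20) it was -33 to -29% (mean -30.6 ± 1.82%, SD). Time since induction was not in the labels.

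Hepatocytes take up zinc from portal blood and hold much of it on metallothioneins, small cysteine-rich proteins that bind zinc and copper. When free zinc rises, Mtf1 binds metal response elements (MREs) in promoters and drives the metallothionein genes and the exporter Slc30a1. The hepatic metallothioneins and the importer Slc39a14 are also known as genes that respond to inflammatory cytokines, and the metallothioneins to glucocorticoids.

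Mt1 and Mt2 are neighbours, and their sequences are shown because the same zinc-binding design and the same promoter element recur in both. GENCODE M21 places Mt2 (ENSMUSG00000031762) at chr8:94172664-94173568 and Mt1 (ENSMUSG00000031765) at chr8:94179082-94180327 of GRCm38, on the forward strand, with 5513 bases between the end of the former and the start of the latter. The coding sequences of transcripts Mt1-201 and Mt2-201, each spread over 3 exons, are written 5′ to 3′ with every cysteine codon in capitals.
Mt1: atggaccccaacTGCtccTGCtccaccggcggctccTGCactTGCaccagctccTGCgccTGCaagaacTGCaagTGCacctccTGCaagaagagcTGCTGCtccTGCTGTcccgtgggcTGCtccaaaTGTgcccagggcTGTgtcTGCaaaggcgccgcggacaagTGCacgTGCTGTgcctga
Mt2: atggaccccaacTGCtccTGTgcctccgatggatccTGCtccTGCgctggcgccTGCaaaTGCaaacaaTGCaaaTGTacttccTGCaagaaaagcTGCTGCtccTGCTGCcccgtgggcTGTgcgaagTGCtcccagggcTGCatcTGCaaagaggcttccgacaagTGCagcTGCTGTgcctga
Each holds 186 bases, and 20 of the 61 codons before the stop encode cysteine (32.8%). All 20 cysteine codons sit at the same positions in both genes. The 2 coding sequences were identical at 148 of 186 bases (79.6%), and the longest identical run was 20 bases. Over whole transcripts, 0 of the 100-base stretches of Mt1 were shared with another gene. Those of Mt2 were shared only with its antisense gene Gm45774. Stretches of that length from Mt1 and Mt2 could thus be told apart.

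The 250 bases before each RefSeq start (GRCm38.p6, forward strand) follow, at chr8:94178839-94179088 for Mt1 and chr8:94172368-94172617 for Mt2. Capitals mark stretches that match the MRE core, searched as TGCACNC and TGCGCNC on both strands.
Mt1: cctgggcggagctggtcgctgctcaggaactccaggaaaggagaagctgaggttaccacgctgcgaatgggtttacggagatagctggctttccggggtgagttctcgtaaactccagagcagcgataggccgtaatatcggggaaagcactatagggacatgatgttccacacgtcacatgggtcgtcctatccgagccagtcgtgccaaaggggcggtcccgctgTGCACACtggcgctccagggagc
Mt2: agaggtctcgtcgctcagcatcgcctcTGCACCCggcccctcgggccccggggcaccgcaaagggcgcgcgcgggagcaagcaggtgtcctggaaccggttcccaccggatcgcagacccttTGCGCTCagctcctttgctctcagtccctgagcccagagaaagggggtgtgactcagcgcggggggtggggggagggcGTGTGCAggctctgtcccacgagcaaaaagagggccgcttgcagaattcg
The Mt1 window held 1 match, 23 to 17 bases before the start. The Mt2 window held 3, of which the nearest lay on the reverse strand, 50 to 44 bases before the start. Of 32851 RefSeq promoter windows, 21.4% held at least 1 match and 0.77% at least 3. When the first 50 transcribed bases were added, Mt1 had 3 matches and Mt2 had 4, and 1.31% of windows had at least 3. GENCODE M21 also lists Mt1 transcripts that start downstream of the RefSeq start, and the bases just before those starts were not covered. It places the start of Mt2 at chr8:94172664, also after the RefSeq start. The coding sequences begin further on, at chr8:94179311 for Mt1 and chr8:94172848 for Mt2. Beyond the first 50 transcribed bases, the sequence up to those positions was not searched, so these counts may miss MREs of both genes. Among the other members with a window, Slc30a10 had 2 matches in 250 bases, Slc30a1 had 1, Mtf1 had 0, and of the 2 windows of Slc39a8 one had 1 and the other 0. The STAT core TTCNNNGAA, searched likewise, was in 7.02% of the windows and in none of those of the 6 members with a window. The antioxidant response core TGACNNNGC, in 10.2% of windows, was found once each in Mt2, where it did not overlap an MRE match, in Slc30a1 and in 1 window of Slc39a8. These matches describe the letters of the windows and do not show binding.

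Total counts per liver ranged from 31459179 to 40746178. Levels are CPM, counts scaled to a common library size by TMM, and differences were taken from a quasi-likelihood fit in edgeR, with p-values adjusted over all 14143 genes. Of these, 538 passed an adjusted p of 0.05 (3.8%), 267 higher (1.89%) and 271 lower (1.92%) in CACS livers, and the median log2 fold change of all genes was -0.01. The livers carried hepatocyte RNA throughout. The summed level of 8 hepatocyte markers ran from 78999 to 125604 CPM in NCACS and from 119458 to 145071 CPM in CACS livers. In edgeR 0 of the 8 passed, and 1 had an unadjusted p under 0.05 (21.6% of all genes did). All 9 Kupffer cell markers had lower fitted levels in CACS livers, with sums from 209 to 372 CPM in NCACS and from 135 to 281 CPM in CACS livers. Of the 9, 4 had an unadjusted p under 0.05 (21.6% of all genes did). Cd5l alone passed (log2 fold change -0.90, edgeR adjusted p = 0.0374), where 1.92% of all genes passed as lower. Of the other marker lists, 1 gene passed, the lung surfactant gene Sftpa1, at 1.26 to 1.54 CPM in NCACS and 1.72 to 5.65 CPM in CACS livers, with the lung marker Sftpc at or under 3.43 CPM. All 3 neutrophil and all 5 lymphocyte markers tested had lower fitted levels in CACS livers, with median log2 fold changes of -1.66 and -0.68. The unadjusted p was under 0.05 for 3 of each (21.6% of all genes), and sums were at most 20.3 CPM in any liver. In bulk tissue, fewer cells of a type and less RNA per cell cannot be told apart, and the part of cell composition in the values below was not tested.

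Of the 7 genes, 1 passed the test, Slc39a14, which was higher in CACS livers. The share of all tested genes that passed in that direction was 1.89%. The metallothioneins, the most abundant members per kilobase of transcript, differed up to 9.85-fold between livers, with high and low livers in both groups. Slc30a1 hardly varied, and the remaining genes overlapped between groups. Per kilobase, the order of the means over livers was Mt2, Mt1, Slc39a14, Slc30a1, Slc30a10, Slc39a8 and Mtf1 in both groups. Within livers, Mt2 was above Mt1 per kilobase in 9 of 10 (all but mouse 20) and Slc30a1 above Slc30a10 in 8 of 10 (all but mice 15 and 18). The other neighbours in this order kept it in 10 of 10. The place of Mt2 above Mt1 depends on the lengths used: the Mt1 model of 1246 bases covers its whole locus, introns included. By CPM, Mt1 was above Mt2 in every liver. The means of Slc30a1 (8.54 ± 0.409 CPM per kilobase in NCACS and 8.44 ± 0.580 in CACS livers) and Slc30a10 (7.92 ± 3.21 and 6.71 ± 2.06) differed by less than the spread of Slc30a10.

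**Figure D1:**
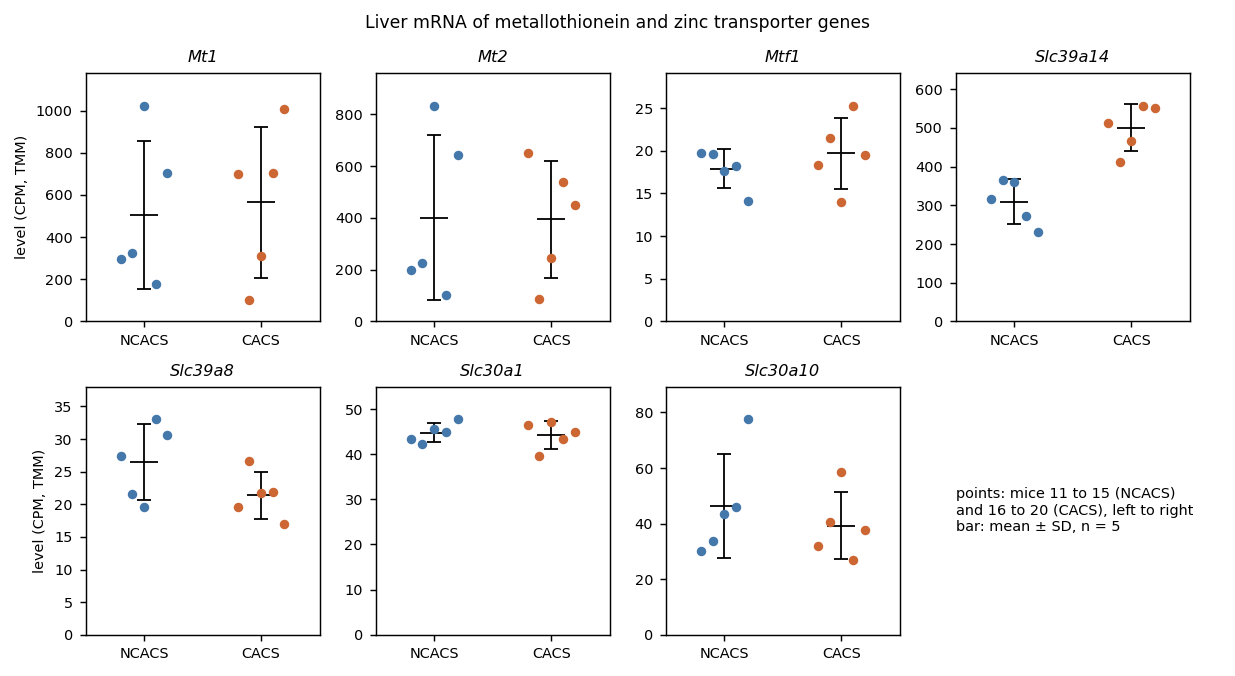
Level of each gene in each liver, in TMM-scaled CPM (vertical axes, from 0), for the 5 NCACS and 5 CACS mice. Each point is a liver, in mouse order from left to right, and bars are the mean ± SD. Only for Slc39a14 do the groups not overlap, from 229.9 to 365 CPM in NCACS and from 413 to 558 CPM in CACS livers.

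Slc39a14 (ENSMUSG00000022094, chr14:70303469-70351425, reverse strand) encodes ZIP14, a plasma membrane importer of zinc that also carries manganese and non-transferrin-bound iron into hepatocytes. Its level in NCACS mice 11 to 15 was 317, 365, 359.9, 273 and 229.9 CPM. In CACS mice 16 to 20 it was 512, 413, 467, 558 and 551 CPM. Every CACS liver was above every NCACS liver, and the gap between mouse 12 and mouse 17 separated the groups. Groups that did not overlap, with CACS higher, were seen in 3.95% of the genes tested. Group means were 309 ± 57.7 and 500.1 ± 60.7 CPM (SD, 5 livers each). The log2 difference was 0.69 (standard error 0.147, 95% interval 0.37 to 1.02, edgeR adjusted p = 0.0311) or 1.62-fold. DESeq2, which called 9.8% of all genes (4.75% in this direction), gave an adjusted p of 0.000509. In limma-voom, which called 1.68% in this direction, it was 0.0305. With 1 mouse left out the log2 fold change was 0.61 to 0.76, but the edgeR adjusted p passed 0.05 in only 5 of 10 cases. It was 0.0657 without mouse 11, 0.0641 without 14, 0.0665 without 16, 0.0659 without 19 and 0.0666 without 20. Within groups, the 5 genes that followed Slc39a14 most closely over the 10 livers were Agpat1 (Pearson r = 0.99), L3mbtl3, Brpf3, Bicra and Arhgap45 (0.96 to 0.95). Agpat1 encodes an enzyme of phospholipid synthesis, and none of the 5 passed the test between groups.

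Slc39a8 (ENSMUSG00000053897, chr3:135825279-135888572, forward strand) encodes ZIP8, the closest relative of ZIP14, which imports manganese and zinc. It was at 27.4, 21.6, 19.5, 33.1 and 30.7 CPM in the NCACS mice and at 19.6, 26.7, 21.7, 21.8 and 16.9 CPM in the CACS mice. The lowest liver was a CACS liver and the 3 highest were NCACS livers, but the ranges overlapped. The Slc39a8 log2 fold change between groups was -0.31 (standard error 0.163, 95% interval -0.66 to 0.05, edgeR adjusted p = 0.295). Per kilobase, Slc39a14 averaged 29.3 ± 5.47 CPM in NCACS livers and 47.4 ± 5.75 CPM in CACS livers, against 3.45 ± 0.755 and 2.79 ± 0.467 CPM for Slc39a8 (SD, n = 5 each), so that ZIP14 mRNA was the more abundant of the pair in both groups. With group means subtracted, the 2 genes ran in opposite directions over the 10 livers (Pearson r = -0.83).

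Of the 12 other ZIP importers listed, 11 were tested and 0 passed, with 5 higher, 6 lower and a median log2 fold change of -0.02. By unadjusted p, 2 of the 11 were under 0.05, against 21.6% of all genes, and limma-voom called 0. The 3 with the smallest unadjusted p were low or variable. Slc39a6, an importer of the plasma membrane, ranged from 1.20 to 2.36 CPM in NCACS and from 2.41 to 3.69 CPM in CACS livers. The groups did not overlap, as in 3.95% of all genes in this direction (log2 fold change 0.74, edgeR adjusted p = 0.0826). DESeq2, which called 4.75% of all genes in this direction, called Slc39a6 (adjusted p = 0.0229). Slc39a5 stayed under 1 CPM in every liver (log2 fold change 0.67, edgeR adjusted p = 0.177). Slc39a11 was spread from 16.2 to 57.0 CPM in NCACS livers and only from 20.9 to 25.8 CPM in CACS livers (log2 fold change -0.50, edgeR adjusted p = 0.298).

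**Figure D2:**
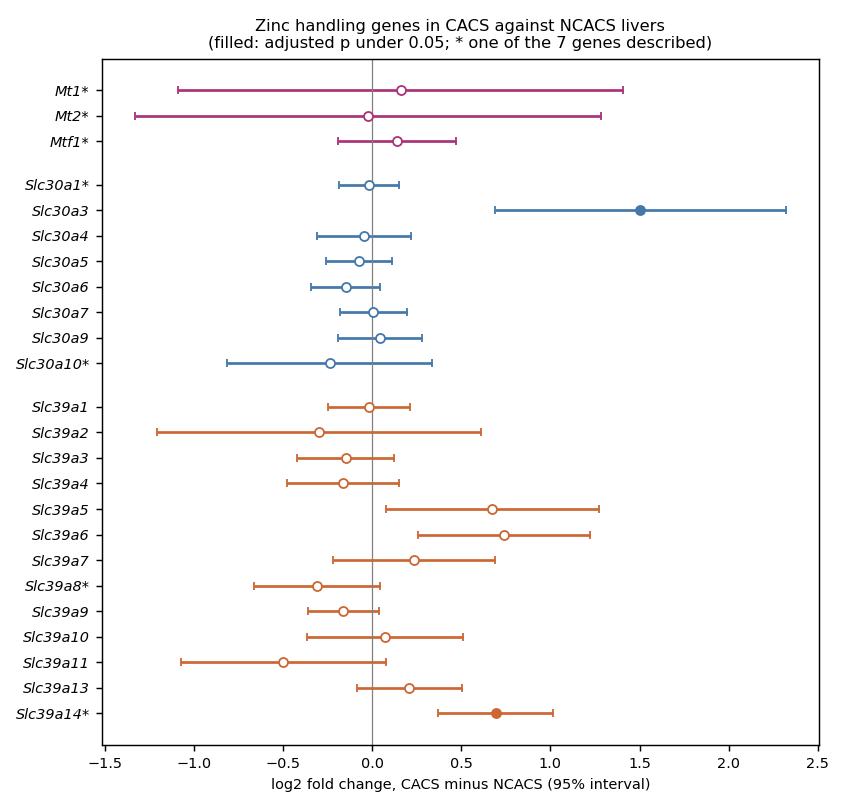
Log2 fold change, CACS minus NCACS, with its 95% interval (horizontal axis) for the metallothioneins, Mtf1 and every tested ZnT and ZIP gene. Filled points passed an adjusted p of 0.05 (Slc39a14 at 0.69 and Slc30a3 at 1.50), and asterisks mark the 7 genes described. The intervals of Mt1 and Mt2 extend beyond 1 on either side of 0, whereas that of Slc30a1 runs from -0.18 to 0.15.

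Slc30a1 (ENSMUSG00000037434, chr1:191906767-191913247, forward strand) encodes ZnT1, the zinc exporter of the plasma membrane. Its levels were 43.4, 42.2, 45.6, 44.9 and 47.8 CPM in the NCACS mice and 46.4, 39.5, 47.2, 43.4 and 45.0 CPM in the CACS mice. The whole set of 10 lay within 1.21-fold, and the groups overlapped. The Slc30a1 log2 fold change between groups was -0.02 (standard error 0.0768, edgeR adjusted p = 0.929), and its 95% interval, -0.18 to 0.15, corresponds to 0.88- to 1.11-fold. The SD of its log2 CPM between livers of a group was 0.0867, smaller than that of all but 2.92% of the 9235 genes with a mean of at least 5 CPM, whose median SD was 0.203. Mt1, which is driven by the same factor, had an SD of 1.17. With group means subtracted, the small differences in Slc30a1 had a Pearson r over the 10 livers of 0.62 with Mt1 and 0.63 with Mt2. The genes nearest to Slc30a1 over the 10 livers, with group means subtracted, were Yeats4 (Pearson r = 0.97), B2m (0.95), Prnp, Tm9sf2 and Dtx3l.

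Slc30a10 (ENSMUSG00000026614, chr1:185454848-185468762, forward strand) encodes ZnT10, which despite its family name is best known as an exporter of manganese. It was at 30.2, 33.9, 43.4, 45.9 and 77.7 CPM in the NCACS mice and at 32.1, 40.5, 58.6, 27.0 and 37.8 CPM in the CACS mice. Mouse 15 was the highest of the 10 and mouse 19 the lowest. The Slc30a10 log2 fold change between groups was -0.24 (standard error 0.264, 95% interval -0.82 to 0.34, edgeR adjusted p = 0.645), and without mouse 15 it was 0.03. Within-group SD was 0.476, larger than that of 91.2% of genes. The 5 genes whose log2 levels followed it most closely over the 10 livers, after group means were subtracted, were Gars, Bco2, Smim11, Pnrc2 and Fam45a (Pearson r of 0.97 for the first and 0.93 for the last).

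Among 8 other ZnT exporters listed, 6 were tested, 1 passed (3.8% of all genes did) and the median log2 fold change was -0.02. The gene that passed was Slc30a3, which encodes ZnT3, the transporter that fills synaptic vesicles with zinc in neurons. It was at 1.78, 1.57, 0.647, 0.632 and 0.649 CPM in the NCACS mice and at 1.82, 2.57, 3.43, 4.85 and 2.43 CPM in the CACS mice. The groups did not overlap (3.95% of all genes in this direction), but mouse 11 and mouse 16 were close, and no liver had over 172 counts. The fitted log2 difference was 1.50 (edgeR adjusted p = 0.0486). This call was lost with any of the 10 mice left out (edgeR adjusted p of 0.0546 to 0.105), and with all livers under upper-quartile factors (0.0511), raw library totals (0.0531) and no filter (0.0513). Slc30a5, Slc30a6 and Slc30a9, which act on membranes inside the cell, had log2 fold changes of -0.07, -0.15 and 0.04 (edgeR adjusted p of 0.672, 0.358 and 0.853).

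Mt1 and Mt2 spanned the widest ranges. Mt1 was at 298, 325, 1024, 179.6 and 702 CPM in NCACS mice 11 to 15 and at 698, 104, 312, 704 and 1006 CPM in CACS mice 16 to 20. Mt2 was at 199.8, 225, 834, 103 and 643 CPM in the former and 649, 87.6, 244, 540.3 and 451 CPM in the latter. Both groups thus held livers with high and low metallothionein mRNA: mice 13 and 15 among the NCACS and 16, 19 and 20 among the CACS were high, and mice 14 and 17 were the lowest of their groups. The log2 fold changes were 0.16 for Mt1 (standard error 0.572, 95% interval -1.09 to 1.41, edgeR adjusted p = 0.905) and -0.02 for Mt2 (standard error 0.598, 95% interval -1.33 to 1.28, edgeR adjusted p = 0.986). The intervals reach from 0.469- to 2.66-fold for Mt1 and from 0.397- to 2.43-fold for Mt2. A change of 2-fold either way lies within both, so these data, with 5 mice per group, do not exclude it. Leaving out 1 mouse moved the Mt1 value between -0.15 (without mouse 20) and 0.59 (without mouse 13), and the Mt2 value between -0.28 (without mouse 16) and 0.43 (without mouse 13).

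The spread of both genes within groups was among the largest in the liver. The SD of log2 CPM was 1.17 for Mt1 and 1.21 for Mt2, larger than that of 99.0% and 99.1% of the 9235 genes with a mean of at least 5 CPM. Slc39a8 (0.286), Mtf1 (0.262) and Slc39a14 (0.237) varied more like a usual gene, exceeding 73.9%, 68.6% and 62.2% of genes.

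**Figure D3:**
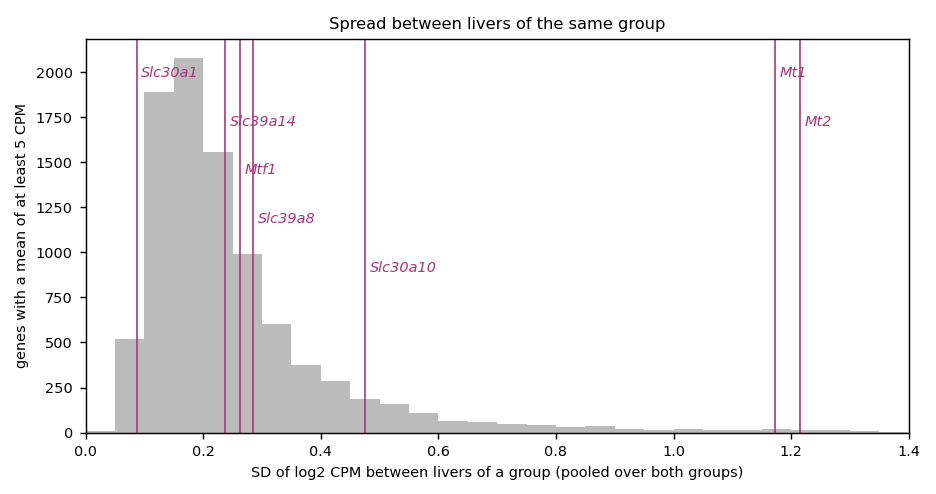
Number of genes (vertical axis) by the SD of log2 CPM between livers of a group, pooled over both groups (horizontal axis, shown up to 1.4), for genes with a mean of at least 5 CPM. Vertical lines mark the 7 genes. Slc30a1 lies at the narrow end at 0.0867, and Mt1 and Mt2 lie far out in the tail at 1.17 and 1.21.

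Mt1 and Mt2 moved together. Per kilobase of gene model, Mt2 was at 682 ± 542 CPM per kilobase in NCACS and 671 ± 386 in CACS livers, and Mt1 at 406 ± 281 and 453 ± 286 (SD, n = 5 each). These values rest on exon lengths of 588 bases for Mt2 and 1246 bases for Mt1. The model of Mt1 includes longer transcripts and covers its whole locus, introns included, so the order per kilobase depends on these lengths. By CPM, Mt1 was above Mt2 in every liver. The ratio of Mt2 to Mt1 counts was 0.670, 0.693, 0.814, 0.571 and 0.916 in the NCACS mice and 0.929, 0.843, 0.781, 0.767 and 0.448 in the CACS mice. In 9 livers it lay between 0.571 and 0.929 while the summed level of both genes ranged from 192 to 1858 CPM. The exception was mouse 20, where Mt1 was at 1006 CPM and Mt2 at 451 CPM. The mean log2 ratio was -0.47 ± 0.264 in NCACS and -0.45 ± 0.410 in CACS livers (SD, n = 5 each), and the difference of 0.0185 gave p = 0.937 in a two-sided exact permutation test over all assignments of the livers, whose smallest possible p is 0.00794. The 2 other metallothionein genes, Mt3 and Mt4, are known mainly from brain and stratified epithelia, did not pass the filter, and together stayed at or under 0.13 CPM.

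The order of livers by Mt1 was shared in large part by acute-phase genes, which hepatocytes express in response to cytokines such as IL-6. In a list of 18 such genes, the lowest CACS liver was mouse 17 for 17 genes (94.4%, against 20.2% of all genes tested), as for Mt1. The lowest NCACS liver was mouse 14 for 16 genes (88.9%, against 19.7%), and the highest NCACS liver was mouse 13 for 15 genes (83.3%, against 24.2%). The highest CACS liver for Mt1, mouse 20, was the highest for only 4 of the 18 (22.2%, against 21.4%). Both minima coincided for 16 of the 18 (88.9%, against 6.67%). Haptoglobin (Hp), a haemoglobin scavenger, was at 22130 CPM in mouse 13 and 1929.9 CPM in mouse 14, and at 2914 CPM in mouse 17. The hepcidin gene Hamp ran the other way among NCACS livers, lowest in mouse 13 (822 CPM) and highest in mouse 14 (2364 CPM). Among CACS livers Hamp was lowest in mouse 18 (1830 CPM). Many genes of the list are known to rise and fall together, and these counts describe 10 livers with no test.

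Between groups, 0 of the 18 acute-phase genes passed, 4 were higher and 14 lower, with a median log2 fold change of -0.32. The serum amyloid genes Saa2, Saa1 and Saa3 had the smallest unadjusted p, with log2 fold changes of -4.85, -3.47 and -3.41 (edgeR adjusted p of 0.0843, 0.124 and 0.267). Without mouse 13 these were -3.15, -2.41 and -0.95. By unadjusted p, 2 of the 18 were under 0.05, against 21.6% of all genes. DESeq2, which called 9.8% of all genes, called Saa1 and Saa2, and limma-voom called 0.

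**Figure D4:**
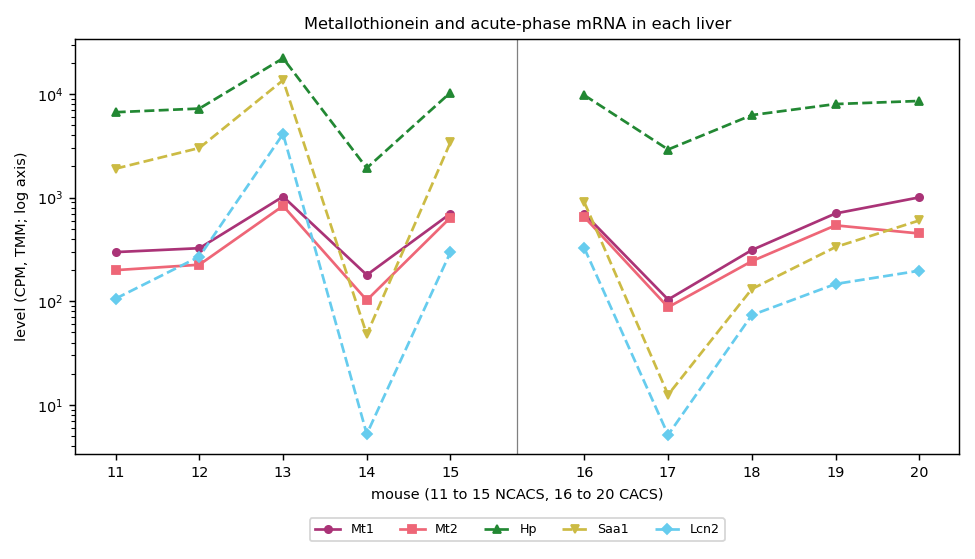
Level in CPM (vertical axis, log scale) of Mt1, Mt2 and the acute-phase genes Hp, Saa1 and Lcn2 in each liver (horizontal axis, NCACS mice 11 to 15 and CACS mice 16 to 20). Lines join mice only to guide the eye. All 5 genes peak in mouse 13 among NCACS livers and have their lowest levels of each group in mice 14 and 17.

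Over the 10 livers, after group means were subtracted, the 5 genes of 9234 most like Mt1 were the chemokine gene Cxcl1 (Pearson r = 0.97), Znfx1 (0.96), the acute-phase gene Serpina3n (0.96), Mt2 (0.96) and the acute-phase gene Orm2 (0.96). None of these 5 passed the test between groups. The extreme livers were also compared for a list of 12 glucocorticoid target genes. The lowest CACS liver was mouse 17 for 3 of them (against 20.2% of all genes tested). The lowest NCACS liver was mouse 14 for 2 (against 19.7%). The highest NCACS liver was mouse 13 for 2 (against 24.2%), and the highest CACS liver was mouse 20 for 1 (against 21.4%). Whether Mt1 levels follow those of the glucocorticoid list was not tested. Of these 12 genes, 11 were higher in CACS livers, 7 had an unadjusted p under 0.05 (21.6% of all genes) and 3 passed, all higher (1.89% of all genes): Zbtb16, a transcription factor (log2 fold change 2.59, edgeR adjusted p = 0.0222), Fkbp5, a co-chaperone of the glucocorticoid receptor (2.27, edgeR adjusted p = 0.0359), and Dusp1, a MAP kinase phosphatase (1.89, edgeR adjusted p = 0.0374). Without mouse 11, none of the 3 passed (edgeR adjusted p of 0.0569, 0.0728 and 0.0822). With each of 10 mice left out in turn, Zbtb16 passed in 9 cases, Fkbp5 in 2 (without mouse 12 or 17) and Dusp1 in 2 (without mouse 18 or 19). Limma-voom and the robust edgeR fit each called 1 of the 12: limma-voom lost Zbtb16 (adjusted p = 0.0546) and Dusp1 (0.0633), and the robust edgeR fit lost Fkbp5 (adjusted p = 0.0569) and Dusp1 (0.0572). The list's median log2 fold change was 0.74, and Tsc22d3, Per1 and Errfi1 had log2 fold changes of 0.78, 1.23 and 0.48 (edgeR adjusted p of 0.186, 0.177 and 0.169).

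Mtf1 (ENSMUSG00000028890, chr4:124802104-124849800, forward strand), the zinc-sensing activator of metallothionein genes, was at 19.8, 19.6, 17.6, 18.3 and 14.2 CPM in the NCACS mice and at 18.3, 21.5, 13.97, 25.3 and 19.5 CPM in the CACS mice. The groups overlapped, and mouse 13, with the highest Mt1 level, had Mtf1 close to its group's mean. The Mtf1 log2 fold change between groups was 0.14 (standard error 0.151, 95% interval -0.19 to 0.47, edgeR adjusted p = 0.635), and it was 0.0355 without mouse 19 and 0.24 without mouse 18. With group means subtracted, Pearson r over 10 livers was -0.12 between Mtf1 and Mt1, -0.74 between Mtf1 and Slc30a1 and -0.85 between Mtf1 and Slc30a10. The genes nearest to Mtf1 were Fam160a2 (0.96), Ino80, Ptprs, Pom121 and Abca3 (0.92 each). Of these, Pom121 and Abca3 passed between groups (3.8% of all genes did), in opposite directions. Their log2 fold changes were 0.46 and -0.42 (edgeR adjusted p of 0.0366 and 0.0372). At 2.01 ± 0.255 CPM per kilobase in NCACS and 2.21 ± 0.468 in CACS livers (SD, n = 5 each), Mtf1 was the least abundant of the 7 genes. Of 6 other genes linked to Mtf1, among them the importer Slc39a10 counted above, 0 passed in edgeR or limma-voom. By unadjusted p, 2 of the 6 were under 0.05 (21.6% of all genes were). Ndrg1, a stress-responsive gene, ranged from 15.2 to 69.7 CPM in NCACS and from 5.74 to 17.8 CPM in CACS livers (log2 fold change -1.66, edgeR adjusted p = 0.0656). It was -1.06 without mouse 15, and the gene passed without mouse 17 (edgeR adjusted p = 0.0404). Ndrg1 also passed in DESeq2 (adjusted p = 0.0191), which called 9.8% of all genes. Gclc, which makes the glutathione precursor, and the selenoprotein gene Selenow had log2 fold changes of -0.64 and -0.29 (edgeR adjusted p of 0.247 and 0.167).

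Metallothioneins also bind copper, and ZIP14, ZIP8 and ZnT10 carry manganese. Of 11 copper genes listed, 10 were tested and 0 passed in edgeR or limma-voom. Of the 10, 2 had an unadjusted p under 0.05 (21.6% of all genes did), 8 were lower and the median log2 fold change was -0.19. The copper importer Slc31a1 ranged from 215 to 246 CPM in NCACS and from 182 to 209.6 CPM in CACS livers, and its relative Slc31a2 from 10.4 to 12.7 and from 8.53 to 10.2 CPM, without overlap in either case (log2 fold changes of -0.25 and -0.30, edgeR adjusted p of 0.122 and 0.109). DESeq2, which called 9.8% of all genes, called Slc31a1 (adjusted p = 0.0158). Separation of the groups with CACS lower was seen in 3.13% of all genes. The copper chaperone gene Atox1 had a log2 fold change of -0.33 (edgeR adjusted p = 0.354). Of 7 manganese genes, 0 passed in edgeR, DESeq2 or limma-voom, and the median log2 fold change was -0.11. By unadjusted p, 1 of the 7 was under 0.05 (21.6% of all genes were). The manganese enzymes Arg1 and Sod2 had log2 fold changes of 0.43 and -0.21 and the iron exporter Slc40a1, which also exports manganese, of 0.34 (edgeR adjusted p of 0.202, 0.349 and 0.305).

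**Figure D5:**
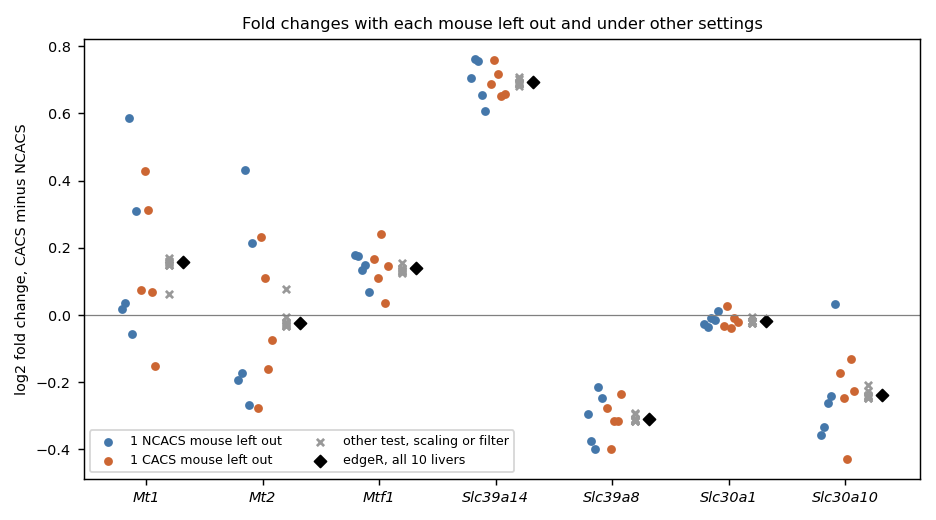
Log2 fold change, CACS minus NCACS (vertical axis), of each gene with 1 NCACS or 1 CACS mouse left out, under other tests, scalings and filters, and with edgeR on all 10 livers (diamonds). Slc39a14 stays between 0.61 and 0.76 with any mouse left out, whereas Mt1 runs from -0.15 to 0.59 and Mt2 from -0.28 to 0.43, on both sides of 0.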

How the data were processed

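The authors prepared stranded poly(A) libraries from liver RNA, sequenced them as single reads, aligned them to GRCm38 with STAR 2.4.1d and counted reads per Ensembl gene with HTSeq 0.6.1, per the labels and the study's methods, and deposited raw counts with no normalization. The annotation release and the strand setting of the counting are not given in the sources used here, so antisense reads cannot be told apart. Of the 100-base stretches of Mt2, 22.4% are shared with its antisense gene Gm45774, which has no row in the count table. Mtf1, Slc30a1 and Slc30a10 share 6.99%, 7.06% and 7.56% with genes on the opposite strand, while Mt1, Slc39a14 and Slc39a8 share 0. Those opposite-strand genes had 37 to 103, 14 to 37 and 24 to 97 counts per liver. Mtf1, Slc30a1 and Slc30a10 had at least 428, 1411 and 957. Symbols and positions came from GENCODE M21 (1081 of 43629 identifiers had no symbol, 70 of the 14143 tested) and promoter windows from RefSeq (6 of 7 genes matched, Slc39a14 did not).

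Counts were filtered with filterByExpr, scaled by TMM and tested with edgeR 4.0.16 (quasi-likelihood, Benjamini-Hochberg threshold 0.05) in R 4.3.3. CPM were TMM-scaled, log2 CPM used a prior count of 2, and CPM per kilobase used the summed exon length of each gene. Groups and mouse numbers came from the labels, which name no batch; whether the p-values cover more than the spread between these 10 livers depends on each being a separate mouse, as numbered. Pairs of livers within a group had chi-square values of at least 46.1 per degree of freedom over genes, so none was counted as a duplicate. The scripts were tested on simulated data.

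The 7 genes and all lists were chosen with earlier results of these data known. Of each list, genes past the threshold and at most 3 others with the smallest unadjusted p were named. The acute-phase genes Hp, Lcn2 and Hamp were named in addition. Likeness was ranked over genes with a mean of at least 5 CPM. Alternatives were DESeq2 1.42.0, limma-voom (limma 3.58.1), RLE and upper-quartile factors, raw totals, testing all genes, a minimum of 10 counts per sample, a robust fit and each mouse left out. Libraries of the study beyond these 10 were not analysed here. A further allele carried by all of the mice is not reported here.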

Additional observations from a re-analysis of the deposited data

Results flagged for a closer look

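In groups of 5 livers, the highest and lowest values of the members, of the named genes and of the Mt2 to Mt1 ratio were compared with the rest of their group by the gap to the nearest liver divided by the group's range, with 0.71 as Dixon's critical value. Of 66 combinations of a gene and a group, 3 exceeded it, and chance alone gives about 1 in 20. The Mt2 to Mt1 ratio of CACS mouse 20 was the lowest of its group (0.448, gap over range 0.7373 on the log2 scale). Atox1 in CACS mouse 17 was at 56.9 CPM against 84.6 CPM in the next liver (0.8091). Fkbp5 in CACS mouse 17 was at 33.0 CPM against 141 CPM in the next liver (0.7527). Other glucocorticoid target genes did not share this low level. Mouse 17 was the lowest CACS liver for 3 of the 12 listed. It was the highest for Dusp1, Tsc22d3, Per1 and Errfi1, at 82.9, 238, 131 and 1937 CPM.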

How the results depend on the processing

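No paired analysis was possible because NCACS and CACS mice share no replicate numbers. DESeq2 called 1386 genes (672 higher and 714 lower) where edgeR called 538 (267 higher and 271 lower), and without the filter edgeR called 173 higher. With 1 mouse left out, 178 to 519 genes were called, 79 to 246 higher and 96 to 273 lower. The log2 fold change of Slc39a14 stayed at 0.61 to 0.76, and its call was lost without mouse 11, 14, 16, 19 or 20. With 1 mouse left out, log2 fold changes changed sign for Mt1 (-0.15 to 0.59), Mt2 (-0.28 to 0.43), Slc30a1 (-0.0384 to 0.0256) and Slc30a10 (-0.43 to 0.0331), as did the Mt2 to Mt1 log2 ratio difference (-0.0674 to 0.195), and Mt2 was at 0.0784 under limma-voom. None of these passed the threshold in any of these settings. Mtf1 (0.0355 to 0.24 with 1 mouse left out) and Slc39a8 (-0.40 to -0.22) kept their direction in every alternative run. The smallest count of a member in any liver was 428, for Mtf1, and Mt1 and Mt2 had at least 3963 and 3341 counts. With 5 mice per group, the wide intervals of Mt1 and Mt2 limit what can be said of a change between groups, and depth limits the low genes Slc30a3 and Slc39a5, with at most 172 and 24 counts.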
